A study of Mus musculus with 12 samples.

Results

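*Kcnq1* encodes the pore-forming subunit of the slow delayed rectifier potassium channel (IKs), and it lies on distal mouse chromosome 7 within a cluster of imprinted genes. Described here are *Kcnq1* and 9 genes beside it, *Tspan32*, *Cd81*, *Tssc4*, *Trpm5*, *Kcnq1ot1*, *Cdkn1c*, *Slc22a18*, *Phlda2* and *Nap1l4*, which are 10 of the 54658 gene names counted. They were picked by name, with the difference of *Kcnq1* between the groups already known, to ask whether that difference belonged to *Kcnq1* alone or to its surroundings. The levels of these genes in the 2 groups are therefore given as a description, with an interval for each difference and no test. The comparison between the sexes was not used by this choice and is tested. Other genes, in lists that were also drawn up with earlier results known, are tested in the same iNICD against control contrast.

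RNA was sequenced from the left atrium (LA) of 6 iNICD mice and 6 littermate controls. The iNICD mice carried *αMHC-rtTA*, a transactivator driven by a cardiomyocyte promoter, together with *tetO_NICD*, so that doxycycline switches on the Notch1 intracellular domain in cardiomyocytes. The controls carried *αMHC-rtTA* alone, and both groups, aged 2 to 3 months at the start and of mixed genetic background, ate doxycycline chow during 3 weeks, with no washout. Of the controls 4 were female and 2 male, of the iNICD mice 3 were of each sex, and each LA was a library of its own. The libraries held 21432632 to 27182038 counts on genes. *Notch1*, the source of the transgene, had a mean of 118 CPM in controls and 3401 CPM in iNICD libraries, CPM being counts scaled to a common library size and always normalized here. Control replicate 5 stood apart from the other 11 libraries, at -77.4 on the first principal component (32.6% of the variance) against -20.2 to 22.7, and values without it are given beside several results.

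In an imprinted cluster, some of the genes are used from only one parental copy. *Kcnq1ot1* is a long noncoding RNA read in the opposite direction to *Kcnq1*, starting within one of its introns at a control region that is methylated on the maternal copy. The paternal copy makes the RNA, and along that copy genes such as *Cdkn1c*, *Phlda2* and *Slc22a18* are silenced in many tissues, while *Kcnq1* itself is known to become active on both copies in the heart as it develops. Counts per gene do not separate the parental copies, so the values below are sums over both.

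The 10 genes span 544.1 kb on GRCm38 (mm10), in the order *Tspan32*, *Cd81*, *Tssc4*, *Trpm5*, *Kcnq1*, *Cdkn1c*, *Slc22a18*, *Phlda2* and *Nap1l4*, with *Kcnq1ot1* inside *Kcnq1*. *Kcnq1* (ENSMUSG00000009545.14) lies on the plus strand at chr7:143106362-143427042, with 4093 exonic bases. *Kcnq1ot1* (ENSMUSG00000101609.2) lies on the minus strand at chr7:143203458-143296549, a single exon of 93092 bases. Its start falls in an intron of *Kcnq1* of 97333 bases, and 1 exon of *Kcnq1*, of 121 bases, lies under it on the opposite strand (2.96% of the exonic bases of *Kcnq1*). The nearest neighbours on either side are *Trpm5*, which ends 11.7 kb before *Kcnq1*, and *Cdkn1c*, which begins 31.3 kb after it. The outermost are *Tspan32*, 86.7 kb before, and *Nap1l4*, 86.5 kb after.

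Promoters of 7 of the 10 genes were found in the RefSeq promoter table (GRCm38.p6, 250 bases before to 50 after the start of each gene), and *Kcnq1*, *Cdkn1c* and *Nap1l4* were not among them. A pair of these promoters is shown. That of *Kcnq1ot1* (chr7:143296498-143296797, minus strand) is shown because this RNA is the one member read against *Kcnq1*; the letters CCAAT, the binding letters of the factor NF-Y, are in capitals and occur 3 times. That of *Cd81* (chr7:143052500-143052738, plus strand, up to the annotated start of the gene) is shown because it holds TGGGAA, the core letters of RBPJ, the DNA-binding partner of the Notch intracellular domain, in capitals.
Kcnq1ot1: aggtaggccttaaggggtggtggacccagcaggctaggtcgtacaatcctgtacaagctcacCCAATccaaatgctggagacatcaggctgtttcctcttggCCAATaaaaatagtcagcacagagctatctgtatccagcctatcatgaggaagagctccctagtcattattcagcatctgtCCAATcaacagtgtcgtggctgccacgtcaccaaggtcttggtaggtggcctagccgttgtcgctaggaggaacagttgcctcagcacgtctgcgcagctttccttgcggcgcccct
Cd81: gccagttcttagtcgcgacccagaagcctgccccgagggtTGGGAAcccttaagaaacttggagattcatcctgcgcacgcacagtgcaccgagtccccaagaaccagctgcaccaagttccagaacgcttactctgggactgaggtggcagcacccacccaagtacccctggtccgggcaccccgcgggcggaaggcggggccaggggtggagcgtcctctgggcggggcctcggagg

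Both strands were searched for each motif, and overlapping matches were counted. At least 3 CCAAT matches, as in *Kcnq1ot1*, were found in 3.37% of the 32851 promoters, and at least 1 in 37.4%, *Phlda2* and *Tssc4* included. TGGGAA was found in 25.6% of all promoters and in those of *Cd81* and *Tssc4* among the 7. CACGTG, the E-box bound by HEY and HES factors, was found in 7.15% of promoters and in none of the 7. CACNAG, the N-box of HES factors, was found in 42.5% of promoters and in those of *Tspan32*, *Tssc4*, *Trpm5* and *Slc22a18*. The promoters of *Phlda2*, *Cd81* and *Tssc4* are rich in CG pairs, with 26, 23 and 23 against a median of 7 over all promoters. *Kcnq1ot1* has 9, *Trpm5* has 5, and *Tspan32* and *Slc22a18* have 2 each. A match of letters is not a measured binding site, and methylation was not measured.

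*Kcnq1* was the member whose level differed between the groups beyond the spread of the libraries. In the 6 controls it was at 46.8 CPM in the lowest, 83.1 at the median and 94.5 in the highest, and in the 6 iNICD libraries at 152, 164 and 211. No control reached the lowest iNICD library. The means were 77.0 ± 17.1 and 172 ± 22.7 CPM (SD, n = 6 per group), a ratio of 2.23, and the log2 fold change was 1.16 (standard error 0.15, 95% interval 0.83 to 1.48). In raw counts *Kcnq1* had 1003 to 2287 reads per control library and 3447 to 5587 per iNICD library, so counting error is small beside the spread between mice.

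The antisense RNA *Kcnq1ot1* did not share this difference. Its level was 2.36, 2.96 and 10.6 CPM in the lowest, middle and highest control, and 1.38, 2.88 and 4.22 CPM in the iNICD libraries. The groups overlapped, and the medians lay close together while control replicate 5 was far above the other 5 controls, which reached 4.71 CPM. The log2 fold change was -0.63 (standard error 0.39, interval -1.47 to 0.22), and without control replicate 5 it was -0.14, with an interval of -0.73 to 0.44. Counts were 51 to 226 per control and 33 to 104 per iNICD library.

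**Figure D1:**
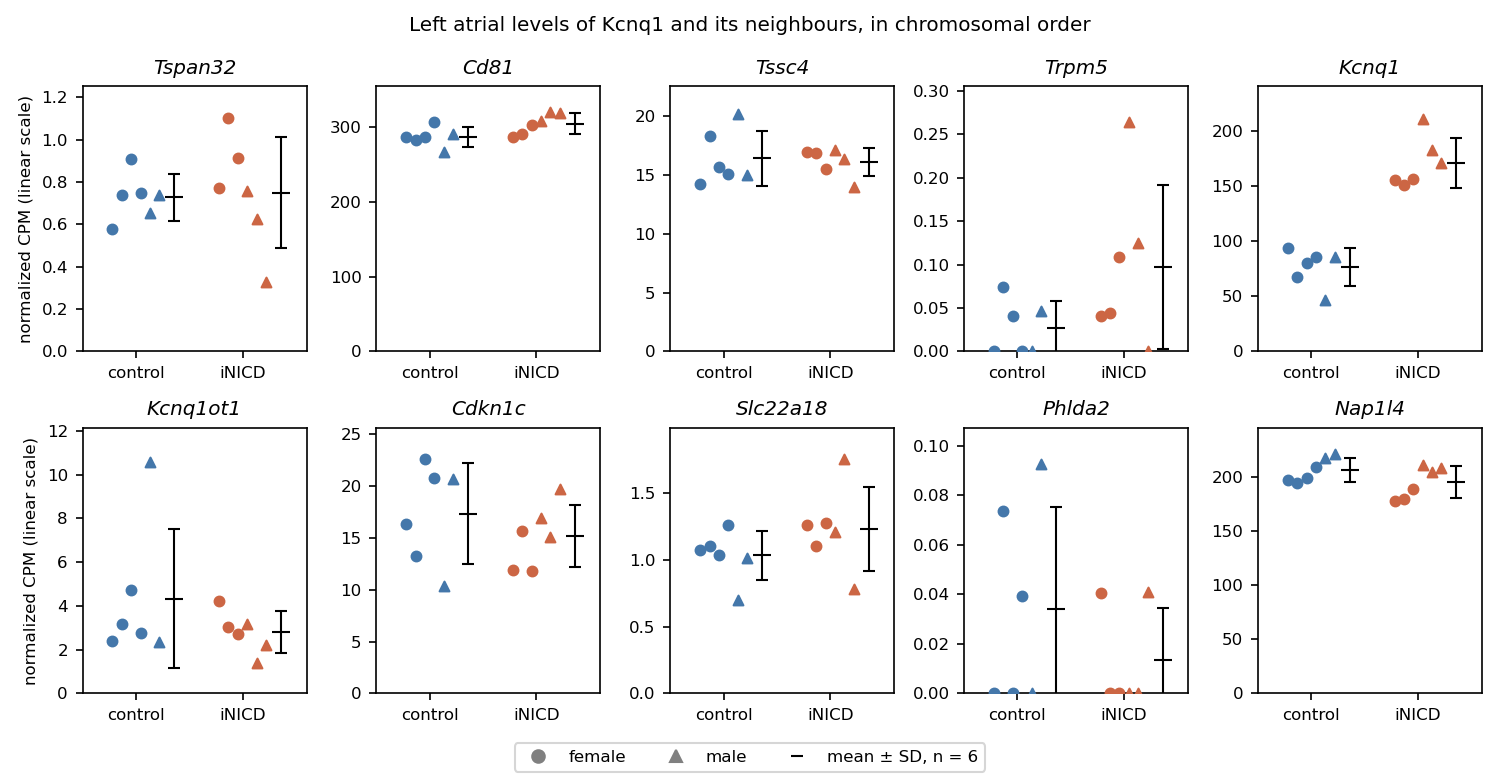
Normalized CPM (linear scale, from 0) of the 10 genes in chromosomal order, with 1 point per library, circles for females, triangles for males, and a bar for the mean ± SD of 6 libraries. The iNICD points of *Kcnq1* (152 to 211 CPM) lie above all of its controls (46.8 to 94.5 CPM), and in each of the other panels the groups overlap.

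Next to the 3' side of *Kcnq1*, *Cdkn1c* encodes p57, an inhibitor of cyclin-dependent kinases that holds cells out of the cycle. It was at 10.3, 18.5 and 22.6 CPM in the lowest, middle and highest control and at 11.8, 15.4 and 19.7 CPM in iNICD libraries, which all lay inside the range of the controls. The log2 fold change was -0.19 (95% interval -0.61 to 0.22), and -0.31 (-0.66 to 0.05) without control replicate 5. *Slc22a18*, a transporter of the organic cation family, was low in both groups, at 0.701, 1.05 and 1.26 CPM in controls and 0.778, 1.23 and 1.75 CPM in iNICD libraries. Its log2 fold change was 0.25 (-0.19 to 0.69), and 0.16 (-0.27 to 0.58) without control replicate 5. *Phlda2*, which restrains growth of the placenta, was close to absent, with 5 reads over the 6 controls and 2 over the 6 iNICD libraries. These are too few to show a difference at this depth.

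*Nap1l4*, a histone chaperone at the edge of the cluster, and *Cd81*, a tetraspanin of the cell surface on the other side, were the most abundant of the 10 and the least variable. *Nap1l4* was at 195, 204 and 221 CPM in the lowest, middle and highest control and at 178, 197 and 212 CPM in iNICD libraries. Its log2 fold change was -0.08 (standard error 0.06, interval -0.22 to 0.05). *Cd81* was at 267, 287 and 307 CPM in controls and at 288, 306 and 320 CPM in iNICD libraries. Its log2 fold change was 0.09 (standard error 0.05, interval -0.03 to 0.20). Both pairs of groups overlapped, with 3 iNICD libraries below all controls for *Nap1l4* and 3 above all controls for *Cd81*.

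On the 5' side, *Tssc4*, which takes part in assembly of the splicing machinery, was at 14.2, 15.4 and 20.2 CPM in controls and 14.0, 16.6 and 17.1 CPM in iNICD libraries. Its log2 fold change was -0.03 (interval -0.23 to 0.18), and 0.04 (-0.14 to 0.22) without control replicate 5. *Tspan32*, a tetraspanin of blood cells, had 14 to 22 counts per control and 8 to 25 per iNICD library, or 105 against 112 in total. *Trpm5*, the taste cell cation channel whose gene is the nearest of those that do not overlap *Kcnq1*, had 4 counts over the controls and 15 over the iNICD libraries, of which 7 came from iNICD replicate 4. With no filter on low counts the log2 fold change was 0.04 for *Tspan32* (-0.57 to 0.64), 1.67 for *Trpm5* (-0.11 to 3.45) and -1.10 for *Phlda2* (-3.17 to 0.97). The interval of *Trpm5* is wide enough to hold a difference as large as that of *Kcnq1*, and that of *Phlda2* ends a little below it.

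Of the 10 genes, 7 passed the filter (over 1 CPM before normalization in at least 6 libraries), and *Phlda2*, *Tspan32* and *Trpm5* did not. One of the 7, *Kcnq1*, was called at an adjusted p under 0.05 in the fit over all 13541 genes, where 4.12% were called (2.78% higher and 1.34% lower). *Kcnq1* was also the one of the 7 whose groups did not overlap, an arrangement found for 3.83% of all tested genes (2.58% higher and 1.25% lower). The choice of genes rested on this contrast, so nothing is read from either count. The intervals are likewise a description and no test of *Kcnq1* against its neighbours. The upper bounds of the 6 tested neighbours ran from 0.05 for *Nap1l4* to 0.69 for *Slc22a18*, and the lower bound of *Kcnq1* was 0.83. The median log2 fold change of these 6 was -0.05, beside -0.01 over all tested genes.

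Ratios within a library need no scaling between libraries; they restate the same counts and add no separate evidence. *Kcnq1* had 0.267 ± 0.0532 counts for each count of *Cd81* in controls (0.175 to 0.330) and 0.562 ± 0.0636 in iNICD libraries (0.516 to 0.686). Against *Nap1l4* the ratio was 0.374 ± 0.0887 in controls (0.215 to 0.479) and 0.877 ± 0.0658 in iNICD libraries (0.822 to 0.998). Neither range overlapped between the groups. Of all counts on the 10 genes, *Kcnq1* took 12.5% ± 2.45 in controls and 24.2% ± 1.71 in iNICD libraries (SD, n = 6 each). The count of *Kcnq1* for each count of *Kcnq1ot1* was 4.44 to 39.4 in controls and 37.0 to 133 in iNICD libraries, and these ranges overlapped.

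**Figure D2:**
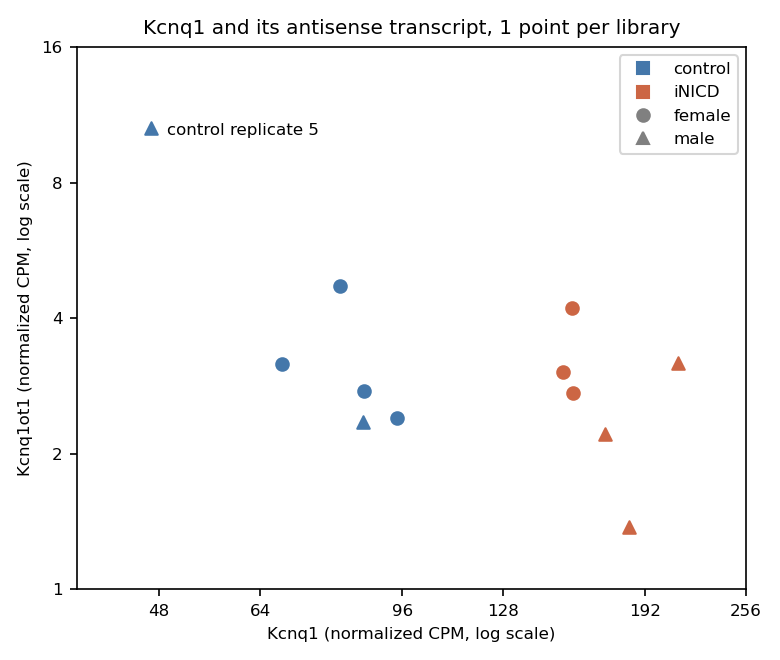
*Kcnq1* (x axis) against *Kcnq1ot1* (y axis), both in normalized CPM on log scales, with 1 point per library, controls in blue and iNICD in orange, circles for females and triangles for males. The groups separate along the *Kcnq1* axis and overlap along the *Kcnq1ot1* axis, and control replicate 5 has the lowest *Kcnq1* (46.8 CPM) with the highest *Kcnq1ot1* (10.6 CPM).

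Could reads of the sense and antisense RNA be mistaken for each other? Counting was checked with genes that lie wholly under exons of the opposite strand, which would have no counts if reads there were dropped as ambiguous. Of 449 such genes 47.9% had counts, beside 48.6% of the 41948 genes with no such overlap, and 14.5% against 30.6% had 12 or more counts. Such genes thus had counts about as often as others, and higher counts less often. This check concerns exons only. *Kcnq1ot1* lies over 93092 bases of the body of *Kcnq1*, of which 121 are exonic, and reads from the introns of *Kcnq1* there were not examined. The labels and the methods name a kit that does not mark strand, while the methods call the reads stranded, so how far reads of *Kcnq1* and *Kcnq1ot1* were kept apart is not settled. *Tssc4* shares 11.9% of its exonic bases with *Trpm5* on the other strand, and *Cdkn1c* shares 30.6% with the antisense gene *Gm44732*, while *Cd81* shares 3.61% with *R74862*.

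Control replicate 5 was the lowest or the highest control for 6 of the 7 tested members, and by Dixon's ratio it stood apart for *Kcnq1ot1* alone. It was the lowest control for *Kcnq1* (46.8 against 68.1 to 94.5 CPM), *Cdkn1c* (10.3 against 13.2 to 22.6), *Slc22a18* (0.701 against 1.02 to 1.26) and *Cd81* (267 against 283 to 307). It was the highest for *Kcnq1ot1* (10.6 against 2.36 to 4.71) and *Tssc4* (20.2 against 14.2 to 18.4). Its summed level of 8 endothelial markers, 1471 CPM, was the highest of the controls (others 1044 to 1231). So was that of 8 smooth muscle and pericyte markers, 878 CPM against 433 to 685. The sum of 10 atrial cardiomyocyte markers was highest too, 109880 CPM against 84813 to 97081. The sum of 6 adipocyte markers was 197 CPM against 101 to 144, but it chiefly follows *Fabp4*, which reached 195 CPM in controls. None of the other adipocyte markers exceeded 2.17 CPM in a control, so this sum says little about adipocytes. In control replicate 5 the sum of 6 Schwann and neuronal markers was the lowest of the controls, 13.8 CPM against 14.0 to 20.4. The part of these shifts in its values was not tested. Without this library *Kcnq1* was at 83.0 ± 9.71 CPM in 5 controls and its log2 fold change was 1.05 (standard error 0.10, interval 0.83 to 1.26).

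Levels can be compared between genes only per length, here as CPM per kilobase of exon. In controls *Cd81* was highest with 99.7 ± 4.42, followed by *Nap1l4* with 66.8 ± 3.61 and *Kcnq1* with 18.8 ± 4.18. *Tssc4* (8.91 ± 1.27) and *Cdkn1c* (8.50 ± 2.38) did not differ beyond their spread. *Slc22a18* was at 0.607 and *Tspan32* at 0.117, and *Kcnq1ot1* (0.0464), *Phlda2* (0.0305) and *Trpm5* (0.0042) were lowest, *Kcnq1ot1* and *Phlda2* overlapping in spread. *Kcnq1* exceeded 83.9% of tested genes per kilobase in controls and 93.9% in iNICD libraries, where it stood at 41.9 ± 5.55, still below *Nap1l4* at 63.1 ± 4.79. *Kcnq1ot1* is divided by 93092 bases, so its rank depends on the whole transcript being covered.

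The comparison between the sexes was not used to choose these genes. With genotype in the model, 0.288% of tested genes (39 of 13541) differed between males and females (edgeR quasi-likelihood test, p-values adjusted by Benjamini-Hochberg), and none of the 7 tested members was among them; 1883 genes of all had an unadjusted p under 0.05. *Nap1l4* came nearest. Female controls had 195 to 210 CPM of *Nap1l4* and male controls 218 to 221 CPM, and female iNICD libraries had 178 to 189 CPM against 205 to 212 CPM in males. Males thus lay above females in both groups, with a log2 difference of 0.16 (standard error 0.04, interval 0.07 to 0.26, edgeR adjusted p = 0.141, 0.115 to 0.138 in the other edgeR fits). DESeq2, which called 495 genes, called it with an adjusted p of 0.000188. *Kcnq1* differed by 0.01 between males and females (standard error 0.16, edgeR adjusted p = 0.98), and by 0.21 without control replicate 5, again with no call.

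Whether the iNICD difference was the same in both sexes was tested as an interaction. No gene passed (0.0% of tested genes, lowest adjusted p = 0.916 in edgeR's quasi-likelihood test, with 501 genes under an unadjusted p of 0.05; DESeq2 called 1). *Kcnq1* was at 152 to 156 CPM in the 3 female and 171 to 211 CPM in the 3 male iNICD libraries. The interaction term was 0.60 for *Kcnq1* (interval -0.02 to 1.21) and -1.54 for *Kcnq1ot1* (-3.11 to 0.02). Only 2 controls were male, and one of them was control replicate 5. Without it the terms were 0.22 (-0.21 to 0.65) and -0.09 (-1.39 to 1.21), on a single male control, which is assumed to vary like the other groups. In females alone the log2 fold change of iNICD over control was 0.91 for *Kcnq1* and 0.03 for *Kcnq1ot1*, and in males alone 1.49 and -1.53. *Cdkn1c* was at -0.48 in females and 0.14 in males, and *Tssc4* at 0.05 and -0.17, so the direction of these differences was not the same in the single-sex fits.

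Genes further out were examined by a list of 30 genes of distal chromosome 7 on either side of the cluster. Of 20 tested, 3 were higher in iNICD libraries, none was lower, and 17 were not called, beside 4.12% of all tested genes called; the median log2 fold change was -0.10. *Shank2*, a scaffold protein of the postsynaptic density, begins 574.9 kb after *Kcnq1* and rose from 3.47 ± 1.38 to 17.2 ± 6.54 CPM, with every iNICD library (9.47 to 27.6) above every control (1.91 to 5.95). Its log2 fold change was 2.30 (standard error 0.30, edgeR adjusted p = 5.93e-04, range over the alternatives 1.30e-12 to 0.532). *Tnni2*, fast skeletal muscle troponin I, ends 662.0 kb before *Kcnq1* and rose from 1.11 ± 0.854 to 3.53 ± 1.20 CPM (log2 fold change 1.68, edgeR adjusted p = 0.0312), its groups overlapping through control replicate 5 at 2.80 CPM. Without that library the log2 fold change was 2.18 (edgeR adjusted p = 6.19e-04). *Ctsd*, the lysosomal protease cathepsin D, 718.3 kb before, rose from 410 ± 23.6 to 505 ± 46.4 CPM (log2 fold change 0.30, edgeR adjusted p = 0.0327).

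The calls of *Tnni2* and *Ctsd* were narrow. That of *Tnni2* was lost in 9 of the 12 fits that left out 1 library (controls 1, 2, 3, 4 and 6 and iNICD replicates 1, 4, 5 and 6), with adjusted p-values from edgeR of 0.0504 to 0.0752. That of *Ctsd* was lost in 8 (controls 2, 3 and 4 and iNICD replicates 1, 2, 3, 5 and 6), at 0.051 to 0.0758, and also with no filter on low counts (adjusted p = 0.0867), with the library number of the title or of the description as a replicate block (0.0941 to 0.0944) and in females alone (0.0789). None of the tested flanking genes nearer to *Kcnq1* than *Shank2* was called, and their differences varied in size. *R74862*, 52.7 kb before *Kcnq1*, had a log2 fold change of 0.06, and *Cars*, the cysteinyl-tRNA synthetase gene 130.2 kb after it, of -0.13. *Tnfrsf22*, 207.8 kb after, was at -0.37 (interval -1.01 to 0.27), and *Tnfrsf23*, 238.8 kb after, at -0.32 (-1.22 to 0.59). *Osbpl5*, 261.7 kb after, was at -0.20 (-0.38 to -0.02, edgeR adjusted p = 0.224). *Mrgpre*, *Nadsyn1* and *Dhcr7*, further along, were at -0.14, -0.03 and 0.15. The second imprinted domain of this region, with *H19* and *Igf2*, had wide spreads, *H19* at 117 ± 48.1 and 83.0 ± 35.1 CPM (edgeR adjusted p = 0.456) and *Igf2* at 3.69 ± 3.33 and 1.91 ± 0.789 CPM (adjusted p = 0.332). *Cttn*, which encodes the actin-binding protein cortactin, had all 6 iNICD libraries (92.8 to 105 CPM) below all controls (106 to 141 CPM) but missed the threshold (log2 fold change -0.24, edgeR adjusted p = 0.0827).

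Within 2 Mb of *Kcnq1* on either side, 55 tested genes were not members, and the same 3 were called, a share of 5.45% beside 4.12% of all tested genes. The median log2 fold change of the 55 was -0.03.

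**Figure D3:**
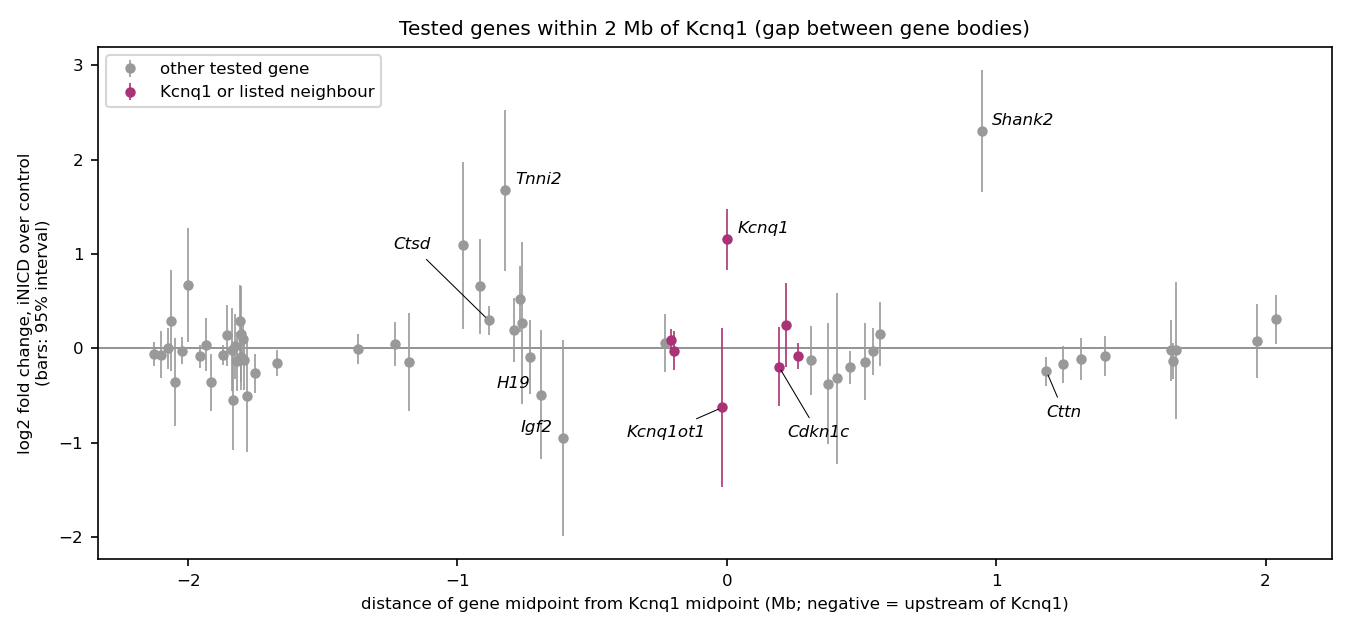
Log2 fold change of iNICD over control libraries, with its 95% interval, for the tested genes within 2 Mb of *Kcnq1*, against the distance between gene midpoints in Mb. *Kcnq1* (1.16) stands above its 6 tested neighbours, and the other called genes, *Shank2*, *Tnni2* and *Ctsd*, lie more than 500 kb away.

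The channel that *Kcnq1* forms was followed through a list of 21 genes of the IKs complex, its regulators and the Kcnq family. None of the 14 tested was called in edgeR (lowest adjusted p = 0.112), 1 was called in DESeq2 and 1 in edgeR's exact test, with 4.12% of all tested genes called, so that few or no calls in 14 are near the background. The median log2 fold change was -0.10. The untested genes include *Kcne1*, the accessory subunit that slows the channel, named here after its counts were seen: it had 1 to 15 counts per control library and 2 to 5 per iNICD library. The other accessory subunits *Kcne2* (0 to 1 counts in any library) and *Kcne3* (4 to 11) were also under the filter, and *Kcne4* was at 3.28 ± 2.29 CPM in controls and 1.86 ± 0.502 CPM in iNICD libraries (adjusted p = 0.298 in edgeR). *Akap9*, the scaffold that tethers protein kinase A to the channel, was at 49.7 ± 3.99 and 49.8 ± 4.92 CPM. *Nedd4l*, a ubiquitin ligase that acts on the channel, was at 96.5 ± 11.6 and 97.1 ± 8.08 CPM. *Sgk1*, a kinase that opposes *Nedd4l*, was at 50.6 ± 17.6 and 28.2 ± 9.79 CPM (edgeR adjusted p = 0.112).

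Imprinted genes on other chromosomes or elsewhere on chromosome 7 were followed through a list of 48, of which 37 were tested. In edgeR, 4 were higher in iNICD libraries and none lower, a share of 10.8% beside 4.12% of all tested genes, with a median log2 fold change of 0.02. *Igf2r*, the receptor that clears Igf2, rose from 359 ± 20.6 to 505 ± 65.6 CPM, with every iNICD library above every control (log2 fold change 0.49, edgeR adjusted p = 0.00492). *Mest* rose from 10.9 ± 4.21 to 77.3 ± 77.6 CPM (log2 fold change 2.83, edgeR adjusted p = 0.0128), the iNICD libraries reaching from 17.4 to 227 CPM and overlapping the controls at their lower end. The highest of them was iNICD replicate 1, without which the iNICD mean was 47.3 ± 28.5 CPM (n = 5) and the log2 fold change 2.12 (edgeR adjusted p = 0.0139). *Snrpn*, a component of small nuclear ribonucleoproteins, rose from 46.4 ± 18.2 to 96.8 ± 27.8 CPM (log2 fold change 1.06, edgeR adjusted p = 0.0217), and *Herc3*, named as the remaining called gene, from 107 ± 11.9 to 143 ± 17.7 CPM (0.43, adjusted p = 0.0237). With male libraries alone (2 controls and 3 iNICD) none of the 9 genes called in these lists passed, although all 9 log2 fold changes stayed above 0, among them 2.34 for *Shank2*, 2.63 for *Mest*, 1.03 for *Tnni2*, 0.97 for *Cd82* and 0.21 for *Ctsd*. The call of *Snrpn* was lost in 6 of the fits that left out 1 library (controls 1 to 4 and iNICD replicates 4 and 5, edgeR adjusted p up to 0.0579). Without control replicate 5 the log2 fold change of *Snrpn* was 1.30 (edgeR adjusted p = 5.91e-04). The call of *Herc3* was lost in 2 such fits (control 1 and iNICD replicate 1, up to 0.0616), as well as with the description number as a block (0.112) and in females alone (0.0995).

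Relatives of the neighbours were followed through further lists. In a list of 12 tested kinase inhibitors, cyclins and kinases around *Cdkn1c*, none was called (lowest edgeR adjusted p = 0.309), beside 4.12% of all tested genes. Among 24 tested paralogues of *Cd81*, *Tspan32*, *Slc22a18*, *Nap1l4*, *Phlda2* and *Trpm5*, 2 tetraspanins were higher and none was lower, a share of 8.33% (median log2 fold change 0.03). *Cd82* rose from 34.1 ± 7.17 to 55.3 ± 6.27 CPM without overlap (log2 fold change 0.70, edgeR adjusted p = 0.0120). *Tspan3* rose from 157 ± 22.2 to 205 ± 20.4 CPM (0.39, edgeR adjusted p = 0.0399), a call lost in 10 of the 12 fits that left out 1 library, all but those without control replicate 3 or iNICD replicate 6, at adjusted p-values of 0.0532 to 0.102. It passed in 8 of 24 alternatives, and the call of *Cd82* was lost with the description number as a block (edgeR adjusted p = 0.0533). A last list held 15 chromatin and DNA methylation genes that act in imprinted silencing, among them *Ehmt2*, *Ezh2*, *Dnmt1*, *Zfp57* and *Trim28*. None was called in edgeR (lowest adjusted p = 0.0731, for *Trim28*), beside 4.12% of all tested genes, and 1 was called in DESeq2. Log2 fold changes ran from -0.30 to 0.24. For *Trim28* (-0.18) all 6 iNICD libraries (109 to 114 CPM) lay below all controls (117 to 137 CPM), as for 1.25% of all tested genes.

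**Figure D4:**
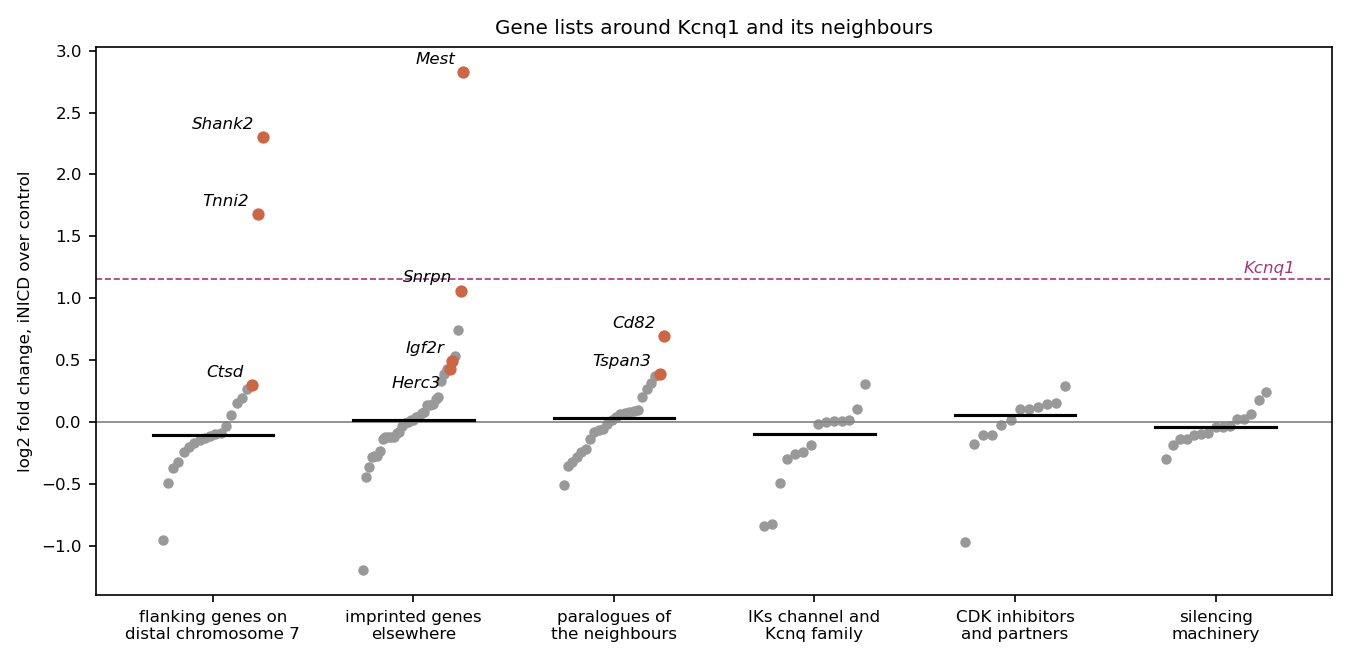
Log2 fold change of iNICD over control libraries for every tested gene of 6 lists, each list sorted by its values, with a black line at the median of the list, orange points for genes called at an adjusted p under 0.05 and a dashed line at the value of *Kcnq1* (1.16). The 9 called genes are all higher in iNICD, and the medians of the lists lie between -0.10 and 0.06.

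Genes outside the 10 members were ranked by how near their profile over the 12 libraries was to that of *Kcnq1*. The members were left out of this ranking and of the second one below, so neither compares them with other genes. Likeness was the root mean square difference of log2 levels, each gene centred on its own mean, over 9364 tested genes above 10 CPM; the median gene was 0.673 away. The nearest were *Pitpnc1* (0.136), a phosphatidylinositol transfer protein, *Abr* (0.140), *Atp1b2* (0.159), a subunit of the sodium pump, *Tmx4* (0.162) and *Rapsn* (0.190), which clusters acetylcholine receptors at the muscle synapse. In each of them control replicate 5 was below the mean of the controls, as in *Kcnq1*. They were picked for likeness over all 12 libraries, so this and the shared group difference follow from the choice and are no separate observation. *Pitpnc1*, for example, was at 92.9 CPM in control replicate 5. Its means were 178 ± 50.9 CPM in controls and 351 ± 31.7 CPM in iNICD libraries. With each gene centred within its group, so that only differences between mice of one group count, the nearest were *Castor2* (0.0919), *Zfp523* (0.101) and *Gm45495* (0.102), on a scale where the SD of *Kcnq1* itself within groups was 0.291.

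In whole atrial tissue, a change in the number of cells of a type and a change in RNA per cell cannot be told apart. Of 10 atrial cardiomyocyte markers 4 were lower in iNICD libraries (*Nppa*, *Myl7*, *Myl4* and *Sln*), 6 were not called and none was higher. Those not called ranged from a log2 fold change of -0.46 for *Actc1* to 0.07 for *Ryr2*, with -0.03 for *Myh6*. The sum of the 10 was 84813 to 109880 CPM in controls and 58555 to 70817 CPM in iNICD libraries, without overlap. Without *Nppa* the sum of the other 9 was 64147 to 79225 and 54761 to 64892 CPM, with 5 of 6 iNICD libraries below all controls. *Kcnq1*, a channel gene of cardiomyocytes, was higher in the iNICD libraries, where the sum of the 10 was lower, which restates the contrast between the groups. The sum chiefly follows its most abundant genes, such as *Myh6* and *Nppa* (means of 33574.5 and 24171.8 CPM in controls). It is no measure of the number of cardiomyocytes. The 6 epicardial and mesothelial markers summed to 243 to 330 CPM in controls and 155 to 309 CPM in iNICD libraries (median log2 fold change -0.30), none being called. No marker of the 8 endothelial, 8 fibroblast or 8 macrophage genes was called, 1 of 8 smooth muscle and pericyte genes was higher (*Cspg4*), and no list had a gene at 0 in all libraries. The part of these markers in the values of *Kcnq1* and its neighbours was not tested.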

How the data were processed

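The data are RNA-sequencing libraries from the LA of 6 iNICD and 6 control mice. The values used are read counts per gene name, which the authors deposited for each library without any normalization. The processing notes in the labels name cutadapt, STAR 2.4.2a, featureCounts of Subread, edgeR and mm10, and the methods also describe a second route by TopHat2 and HTSeq, so the route behind the table is not settled. The deposited table also gives a length in bases per gene name, a unit of its own, used for levels per kilobase and equal to the exon union of GENCODE M21 for 53232 of 54106 shared names. Length enters no comparison between groups. Positions are from GENCODE M21 on GRCm38, and promoters from RefSeq.

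Group, sex and replicate number were taken from the titles and descriptions, which exchange the numbers of 2 controls. No libraries were copies of each other (lowest chi-square per gene 2.94). The 13541 genes above 1 CPM in 6 or more libraries were compared in edgeR 4.0.16 (R 4.3.3), using TMM factors and its two-sided quasi-likelihood test, and called at a Benjamini-Hochberg adjusted p under 0.05. Sex was tested with genotype in the model, and then as an interaction. Normalized CPM are counts divided by the TMM-adjusted library total, on the usual CPM scale. Depth was 21432632 to 27182038 counts per library, and p-values measure the spread between single mice. Same-numbered control and iNICD libraries had correlations of deviations from -0.153 to 0.372, not all above 0.1, so the numbers were not taken to pair them.

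The members and all gene lists were chosen with earlier results of these data known, and the 2-Mb window, the CCAAT search and 2 alternatives to the interaction test (without control replicate 5, and DESeq2) after these values were seen. Genes named are the members, a part of the tested flanking genes and up to 3 called genes each way per list by lowest adjusted p. The genes nearest in profile to *Kcnq1*, outside the members, are named too. Named after their values were seen are *Herc3*, *Fabp4*, several flanking genes that were not called and the called marker genes. So are 3 cardiomyocyte markers that were not called and the regulators of the channel and of silencing. Alternatives were other normalizations, filters and tests (DESeq2 1.42.0 and edgeR's exact test), a sex covariate, replicate blocks, single sexes, leaving out each library, and leaving out mitochondrial genes. Right atria and human nuclei were not analysed here.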

Additional observations from a re-analysis of the deposited data

Results flagged for a closer look

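In groups of 6 libraries, 60 were examined for a library far from the others (Dixon's ratio, critical value 0.625 for 6 libraries), over the 10 members and the 20 tested flanking genes; 9 stood out, where chance alone gives about 1 in 20, or 3. Of the 9, 7 were control replicate 5.

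Among the members, *Kcnq1ot1* in control replicate 5 was at 10.6 CPM against 2.36 to 4.71 CPM in the other 5 controls. Among the flanking genes the same library was high for *Tnni2*, at 2.80 CPM against 0.413 to 0.985 CPM, for *Tnnt3*, at 5.28 CPM against 0.831 to 1.84 CPM, for *Cars*, at 39.0 CPM against 18.6 to 22.8 CPM, and for *Ppfia1*, at 61.7 CPM against 43.3 to 49.2 CPM. It was low for *Dhcr7*, at 9.86 CPM against 18.7 to 21.9 CPM, and for *Ano1*, at 14.7 CPM against 20.0 to 22.8 CPM. The other flags were *Igf2* in control replicate 6, at 10.3 CPM against 0.887 to 3.06 CPM, and *Mrgpre* in control replicate 2, at 10.9 CPM against 5.53 to 7.20 CPM. *Tnni2* and *Tnnt3* both encode troponins of fast skeletal muscle. A cause was not tested.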

How the results depend on the processing

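In the 12 fits that dropped a single library, log2 fold changes ran from 1.05 to 1.22 for *Kcnq1*, -0.78 to -0.14 for *Kcnq1ot1*, -0.31 to -0.10 for *Cdkn1c*, 0.12 to 0.35 for *Slc22a18*, -0.11 to -0.06 for *Nap1l4*, 0.07 to 0.11 for *Cd81* and -0.07 to 0.04 for *Tssc4*. In the same fits 252 to 487 genes were higher in iNICD and 90 to 310 lower, and the genes called were 1 to 4 of the flanking list, 0 to 1 of the IKs and Kcnq list (1 without control replicate 5 or 6), 2 to 4 of the imprinted list (2 without control replicate 1), 1 to 3 of the paralogues and 0 to 1 of the silencing machinery (1 without control replicate 2). The count of lower genes was 310 without control replicate 5.

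Male libraries alone (2 controls, 3 iNICD) left 8 genes higher and 0 lower, and 0 calls among the members, the flanking genes, the imprinted genes and the paralogues; *Kcnq1* was then at 1.49, *Kcnq1ot1* at -1.53 and *Cd81* at 0.16, and *Cd81* at 0.0159 in females alone. DESeq2 called 615 genes higher and 444 lower, 495 between the sexes, 1 with an interaction, 1 of the IKs and Kcnq list and 1 of the silencing machinery, and *Nap1l4* passed between the sexes at 0.17. The exact test of edgeR called 279 genes lower and 1 of the IKs and Kcnq list. Upper quartile factors called 1 gene of the silencing machinery, and 1 paralogue was called with no filter and with sex as a covariate. The cause of these shifts was not tested.

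The replicate numbers do not pair the mice by any label, and 3 of 6 controls correlated best with the iNICD library of the same number. With the title number as a replicate block 332 genes were higher and 136 lower and *Kcnq1* was at 1.18; with the description number 285 were higher, and 0 paralogues were called. Levels under about 1 CPM, as for *Phlda2*, *Trpm5* and *Tspan32*, are limited by depth.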
